A study of Mus musculus with 23 samples.

Results

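The mesenchyme of 2 glands of the mouse orbit was compared at embryonic day 16.5: that of the lacrimal gland (LG), which makes the watery part of tears, and that of the harderian gland (HG), which lies behind the globe and secretes lipid. The members are the 6 arrays, of 23 in the study, whose titles name LG or HG mesenchyme at E16.5, 3 for each gland. The embryos of both groups had the same background strain, labelled B6/CL, and the labels name no treatment. The labels do not state the sex of the embryos, nor whether an array holds RNA of 1 embryo or of several. The p-values therefore measure a spread between samples that may be technical. That spread was pooled over all 23 arrays of the study, in 8 groups, and not taken from the 6 arrays alone. The other embryonic arrays are the epithelium of both glands, and the epithelium and mesenchyme of the eyelid. The epithelium arrays served here to mark genes that may have been carried over from epithelium, and the eyelid mesenchyme arrays as a further mesenchyme of the same region.

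Both glands form when an epithelial bud of the conjunctiva grows into the mesenchyme around the eye, which derives largely from the neural crest. The mesenchyme releases fibroblast growth factors, bone morphogenetic proteins and Wnt modulators that direct where the bud grows and branches, and it lays down the matrix through which the bud moves. Fgf10 from periocular mesenchyme is the classical inducer of both glands. The question put to these arrays is which of those signals, and which transcription factors, matrix genes and accompanying cells, differed between the mesenchymes of the glands.

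Levels are given as log2 of the array's processed signal minus that array's 75th percentile, so a level of 0 equals the 75th percentile of the array and each unit is a 2-fold step. Differences are LG minus HG, with the standard error of limma's fit, and a gene was called when its Benjamini-Hochberg adjusted p over 16324 genes was below 0.05. Where a gene was not well above background on the arrays of the dimmer gland, the difference is given only as a lower bound ("at least N-fold"), computed against the lowest signal that was measurable there. Other genes were above background on only some arrays of the dimmer gland, and for dim genes the size of a difference depended on the background correction. With normexp, the alternative correction, which adds an offset, 75 of the 195 named genes that were called had differences over 1.5 times smaller. Where this holds for a gene whose difference is printed, the value after normexp stands beside it. On the 6 arrays 53.6 to 64.6 percent of spots were well above background, and correlations between arrays over genes were 0.989 to 0.992 within a gland and 0.964 to 0.970 between glands. Markers were checked against the labelled cell type. The summed level of 38 mesenchyme genes was 3088 to 4072 times the 75th percentile on the 6 arrays, against means of 585.4 and 662.4 in LG and HG epithelium. That of 48 epithelial genes was 22.0 to 35.8 in LG mesenchyme and 22.8 to 52.9 in HG mesenchyme, against 639.7 and 621.0 in the epithelia.

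The 2 mesenchymes differed at 2336 of 16324 genes (14.3 percent), 1055 higher in LG mesenchyme (6.46 percent) and 1281 higher in HG mesenchyme (7.85 percent). At least 2-fold differences were called at 1366 genes (8.37 percent), 604 higher in LG (3.70 percent) and 762 higher in HG (4.67 percent). The median difference over all genes was -0.03, and the median of its absolute value 0.27. The arrays of the 2 glands did not overlap at 7113 of the 16324 genes, so lack of overlap was common. RNA came from whole mesenchyme, so fewer cells of a type and less RNA per cell cannot be told apart in any of these differences. With the replicate number as a block among the embryonic arrays, which pairs the arrays of a slide, 2433 genes were higher in LG and 2934 higher in HG. Counts of list members given further on are to be read beside the shares of 6.46 and 7.85 percent. Their counts with the block are to be read beside 2433 and 2934 of 16324. Of the genes called at least 2-fold, 56 of those higher in LG and 121 of those higher in HG were also at least 2-fold higher in that gland's epithelium than in its mesenchyme. Such genes are named apart as possible carry-over, and the part of carry-over in them was not tested.

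**Figure D1:**
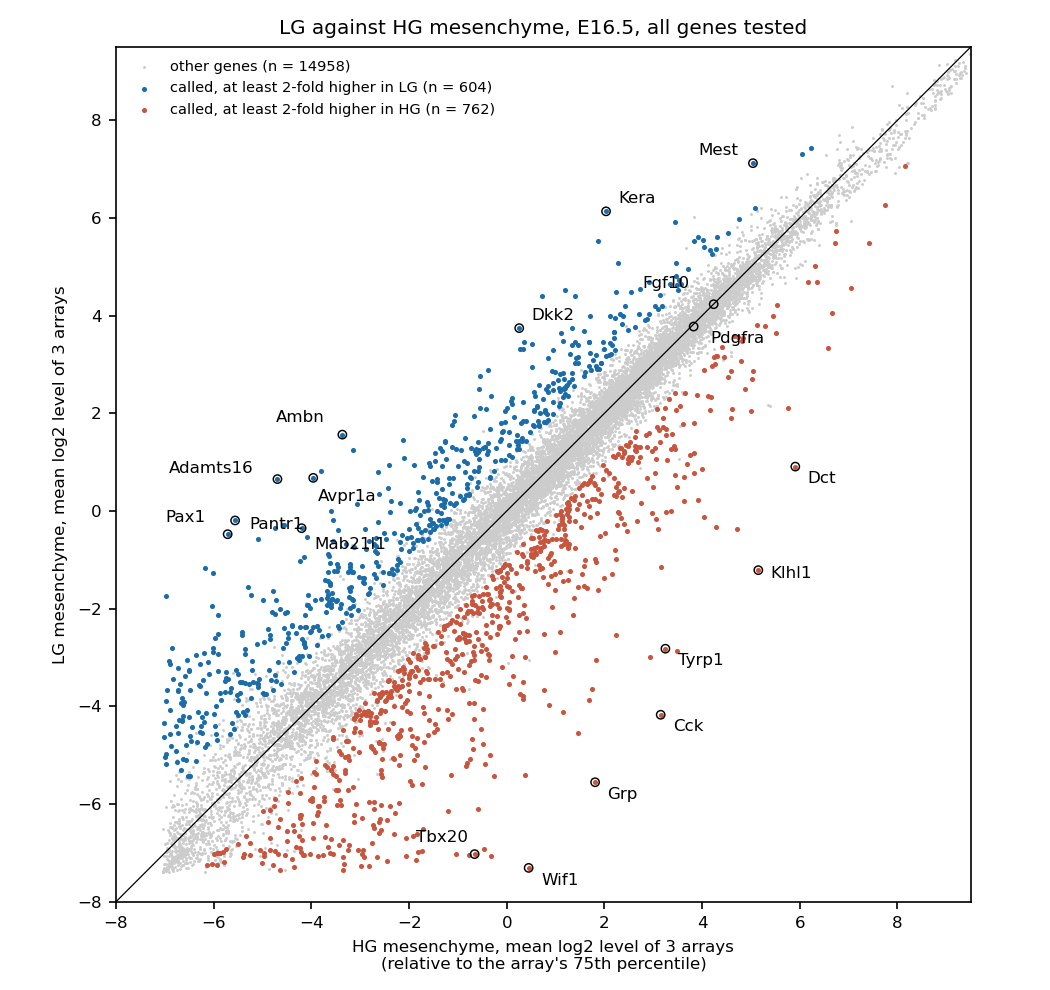
Mean log2 level in HG mesenchyme (x axis) against LG mesenchyme (y axis) for the 16324 genes tested, relative to each array's 75th percentile, with the line of equality; blue marks the 604 genes called with a 2-fold or larger difference towards LG, and red the 762 towards HG. Fgf10 and Pdgfra lie on the line, while Pax1, Pantr1 and Ambn lie above it and Cck, Grp and Wif1 below it.

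Among the 12 unmarked genes with the largest differences in favour of LG were a transcription factor, a noncoding RNA, a peptide hormone receptor and several secreted proteins. These 12, and the 12 in favour of HG, were taken only from genes whose LG and HG arrays did not overlap. Lack of overlap is therefore no further result for them. Pax1, a paired-box transcription factor of sclerotome and pharyngeal pouches, had log2 levels of -0.42, -0.26 and -0.74 in the 3 LG arrays and was not well above background in any HG array. It was at least 18.5-fold higher in LG mesenchyme (adjusted p = 1.3e-06). Pantr1, a long noncoding RNA, was at -0.17, -0.09 and -0.32 in LG and -6.07, -3.95 and -6.66 in HG, a difference of 5.37 ± 0.83 (adjusted p = 0.000156). It was well above background on 1 of the 3 HG arrays, and the difference was 2.65 after normexp. The groups did not overlap for either gene, although HG replicate 2 stood above the other HG arrays for Pantr1. Pou3f3, a POU-domain transcription factor from which Pantr1 lies 1 gene model away in the RefSeq order, was at -3.05, -2.70 and -3.11 in LG and was not well above background in HG, where it was at least 3.4-fold lower (adjusted p = 2.85e-07).

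Avpr1a, a vasopressin receptor, was at 0.40, 0.82 and 0.81 in the LG arrays and -4.15, -3.66 and -4.08 in the HG arrays. The difference was 4.64 ± 0.73 (adjusted p = 0.00018), a 24.9-fold higher level with no overlap. The eyelid arrays lay between the glands, at -1.11, -0.74 and -0.51.

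Secreted and matrix proteins made up much of the rest. Adamts16, a secreted metalloprotease, was at 0.64, 0.70 and 0.62 in LG and -4.59, -4.30 and -5.20 in HG (5.35 ± 0.38, adjusted p = 1.9e-08; 3.13 after normexp). Ambn, which encodes the enamel matrix protein ameloblastin, was at 1.76, 1.36 and 1.57 and -3.12, -3.65 and -3.33 (4.93 ± 0.42, adjusted p = 1.88e-07). The glands did not overlap for either gene. Angptl7, a secreted angiopoietin-like protein, differed by 4.52 ± 0.48, and Klf14, a Krüppel-like transcription factor, by 4.40 ± 0.44 (adjusted p = 2.43e-06 and 1.38e-06), Angptl7 by 2.30 after normexp. Ccbe1, a secreted protein needed for lymphatic vessels, differed by 4.40 ± 0.37 on the probe that stood for it (adjusted p = 1.68e-07), by 2.43 after normexp, and by 1.65 and 2.23 on its other probes. Adamts16, Angptl7 and Ccbe1 were each well above background on 1 of the 3 HG arrays. Mlc1, a membrane protein known from astrocytes, and Frmpd4, a scaffold protein of synapses, were not well above background in HG and were at least 7.84-fold and at least 10.9-fold higher in LG (adjusted p = 0.000734 and 1.81e-05).

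Of the 12 unmarked genes with the largest differences in favour of HG mesenchyme, 2 encode peptides. Cck, the precursor of cholecystokinin, was at 3.07, 3.12 and 3.27 in the HG arrays and -3.85, -4.37 and -4.29 in the LG arrays, a difference of -7.33 ± 0.41 (adjusted p = 1.42e-09). Grp, gastrin-releasing peptide, was at 1.65, 1.496 and 2.28 in HG and was not well above background in any LG array, at least 117-fold lower (adjusted p = 3.38e-07). Every HG array exceeded every LG array for both peptides. In a list of neuropeptides assembled after the values were seen, 2 of 12 measured members were higher in LG and 4 in HG. The other two in HG were Nts, neurotensin (-2.30 ± 0.34, adjusted p = 0.000102; -1.23 after normexp), and Adcyap1, the precursor of PACAP (at least 2.56-fold, adjusted p = 0.000693). Npy and Crh were at least 2.02-fold and at least 1.86-fold higher in LG (adjusted p = 5.69e-07 and 2.04e-07), and neither was called after the normexp background correction. Penk, the enkephalin precursor, was at 6.14, 5.86 and 6.15 in LG and 5.46, 5.22 and 5.64 in HG and was not called (adjusted p = 0.377), except when the fit held only the 6 gland mesenchyme arrays (adjusted p = 0.0275).

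Wif1, a secreted protein that binds Wnt ligands and blocks them, was at 1.09, 0.18 and 0.07 in HG and not well above background in LG, at least 51.1-fold lower there (adjusted p = 3.92e-08). Its level in the eyelid mesenchyme was higher than in either gland, at 3.91, 3.48 and 3.66. Tbx20, a T-box factor best known from the heart, was at -0.85, -0.63 and -0.49 in HG and not well above background in LG (at least 23.7-fold, adjusted p = 8.3e-08). Tbx20 was at -6.67, -6.71 and -6.58 in the eyelid. Slc6a2, the noradrenaline transporter, and Pcdh8, a protocadherin, were at least 29.7-fold and at least 21.8-fold higher in HG (adjusted p = 1.62e-09 and 2.87e-09).

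Klhl1, a kelch-like protein described mainly in neurons, reached 4.97, 5.08 and 5.40 in HG against -1.16, -1.34 and -1.14 in LG (-6.36 ± 0.71, adjusted p = 4.15e-06). Cyp1b1, a cytochrome P450 whose loss causes congenital glaucoma, was at 3.42, 3.53 and 3.50 in HG and -2.79, -2.75 and -3.08 in LG (-6.36 ± 0.35, adjusted p = 9e-10). The serotonin receptor Htr7 was at 2.83, 2.81 and 3.17 and -3.02, -2.86 and -3.11 (-5.93 ± 0.70, adjusted p = 7.79e-06). For each of these 3 genes the lowest HG array was far above the highest LG array. Kndc1 differed by -6.00 ± 0.54 on its main probe (adjusted p = 3.6e-07) but by -3.89 after normexp and by -2.82 and -0.58 on its other probes, with 1 of the 3 LG arrays well above background, and the tetraspanin Tspan10 was at least 18.2-fold higher in HG (adjusted p = 7.15e-09). The twelfth gene, Tyrp1, belongs to the pigment genes described further on.

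**Figure D2:**
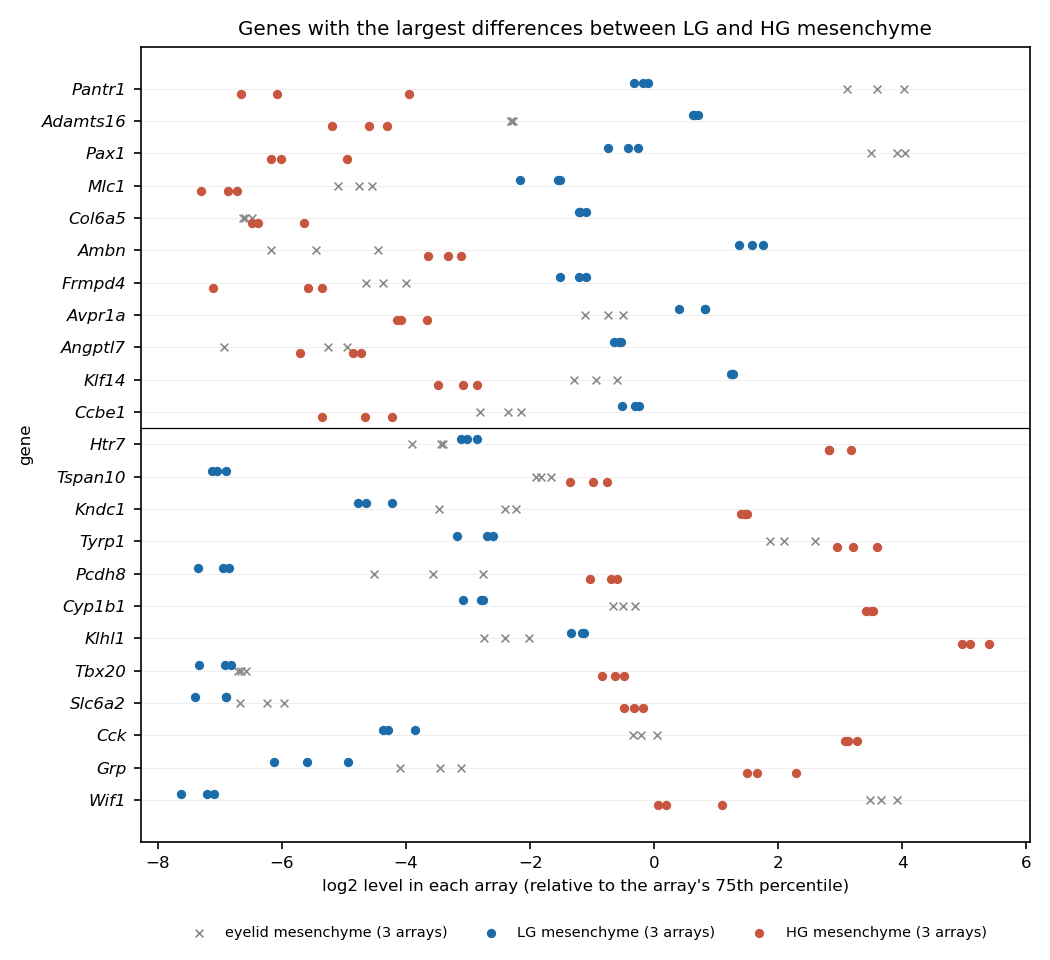
Log2 level (x axis, relative to the array's 75th percentile) in each of the 3 LG, 3 HG and 3 eyelid mesenchyme arrays for 23 of the unmarked genes with the largest differences (y axis). LG and HG points do not overlap for any of the 23 genes, which was a condition for choosing them. The eyelid sits near HG for some (Col6a5), near LG for others (Tbx20) and above both for Pax1, Pantr1 and Wif1.

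In both directions more genes had an eyelid mean nearer to HG than to LG. Of the 604 genes at least 2-fold higher in LG mesenchyme, the eyelid mean lay nearer to LG for 258 and nearer to HG for 346 (57.3 percent). Of the 762 higher in HG, it lay nearer to HG for 487 (63.9 percent) and nearer to LG for 275. These shares describe where the eyelid falls and carry no test.

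Transcription factors of periocular and craniofacial mesenchyme, which give each part of the face its regional identity, differed in both directions. Of 84 measured, 12 were higher in LG and 25 higher in HG, against the 6.46 and 7.85 percent of all genes, with a median of -0.31 (-0.20 with genes not above background at their bound). Of the called factors 10 are marked as possible carry-over from epithelium, and the part of carry-over in them was not tested. With 1 array left out at a time the counts were 10 to 12 and 17 to 20. Beside Pax1 and Pou3f3, the LG side was led by Mab21l1, a factor needed for eye development, at -0.57, -0.14 and -0.35 in LG and -4.53, -4.07 and -3.996 in HG (3.85 ± 0.42, adjusted p = 3.49e-06; 2.29 after normexp, with 2 of the 3 HG arrays well above background). Shox2, a homeobox factor of limb and palate, was at -0.80, -0.84 and -1.11 and -3.54, -3.72 and -3.66 (2.73 ± 0.37, adjusted p = 3.28e-05; 1.70 after normexp). Neither gene overlapped between the glands.

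The HG side was led, after Tbx20, by Pax3 and Lhx8. Pax3, a paired-box factor of neural crest, muscle and pigment cell precursors, was at 0.69, 0.74 and 1.17 in HG and -4.13, -3.66 and -4.15 in LG (-4.85 ± 0.28, adjusted p = 1.62e-09), and at 1.70, 2.02 and 2.12 in the eyelid. Lhx8, a LIM homeobox factor of palate and tooth mesenchyme, was at 0.43, 0.26 and 0.28 and -3.19, -3.53 and -3.76 (-3.82 ± 0.61, adjusted p = 0.000225). Gata3 differed by -3.15 ± 0.29 and Six2, a factor that keeps mesenchymal progenitors undifferentiated in the kidney, by -2.54 ± 0.44 (adjusted p = 4.75e-07 and 0.000463). For these 4 factors all HG arrays were above all LG arrays.

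Smaller differences in the same direction were called for the odd-skipped factors Osr1 (-1.15 ± 0.28, adjusted p = 0.00769) and Osr2 (-0.74 ± 0.15, adjusted p = 0.002), the latter not called with arrays scaled by their median. Foxc1 and Foxc2, forkhead factors of the anterior eye segment, differed by -1.37 ± 0.32 and -1.27 ± 0.34 (adjusted p = 0.00548 and 0.0163), but both are marked as possible carry-over from HG epithelium. Neither was called with arrays scaled by their median (adjusted p = 0.0608 and 0.0781), and the call of Foxc2 was also lost without LG replicate 2 (adjusted p = 0.0928) or HG replicate 2 (adjusted p = 0.0651). Gata6, a zinc finger factor, was not called, at 2.93, 3.21 and 3.27 in LG and 2.98, 3.29 and 3.27 in HG (adjusted p = 0.97), and its arrays overlapped between the glands.

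Of 38 general mesenchyme genes 2 were higher in LG and 5 in HG, beside 6.46 and 7.85 percent of all genes, with a median of 0.13. The count was 7 in LG and 5 in HG with the replicate block. The arrays of the glands did not overlap for 21 of the 38, 13 higher in LG and 8 higher in HG, beside 7113 of all 16324 genes. The receptor gene Pdgfra was at 3.91, 3.67 and 3.75 in LG and 3.82, 3.85 and 3.81 in HG, a difference of -0.05 ± 0.31 that was not called (adjusted p = 0.949). The homeobox gene Prrx1 differed by 0.80 ± 0.36 and was not called either (adjusted p = 0.169), although its arrays did not overlap. It was called after normexp (adjusted p = 0.0483), with the replicate block (0.0277), with the 18 embryonic arrays (0.0374) and with the 6 gland mesenchyme arrays (0.00117). Snai2, a repressor of epithelial genes, was higher in LG by 1.34 ± 0.14 (adjusted p = 2.93e-06). Cdh2, N-cadherin, was higher in HG by a difference of -2.59 ± 0.34 (adjusted p = 2.64e-05).

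Fgf10, the inducer of both glands, was at 4.17, 4.34 and 4.19 in LG mesenchyme and 4.06, 4.39 and 4.26 in HG mesenchyme. The levels overlapped and the difference of -0.0033 ± 0.70 was not called (adjusted p = 0.998). Its SE rests on the spread pooled over all arrays of the study, and a 2-fold difference would lie within 2 SE of 0. The lack of a call therefore cannot by itself exclude a difference of that size. The 6 gland mesenchyme arrays themselves lay between 4.06 and 4.39. Under the alternatives in processing and replicates the difference stayed between -0.091 and 0.073. Both glands were above the eyelid, at 0.71, 1.098 and 1.07. Fgf7, a second ligand of the same receptor isoform, was at 1.97, 1.81 and 1.89 and 1.54, 1.09 and 1.22, without overlap and not called (0.61 ± 0.34, adjusted p = 0.289). It was called with the replicate block (adjusted p = 0.0348), with the 18 embryonic arrays (0.0333) and with the 6 gland mesenchyme arrays (0.0217). Of 27 FGF ligands and receptors 4 were higher in LG and 2 in HG, beside 6.46 and 7.85 percent of all genes. With the replicate block it was 6 in LG and 8 in HG. The counts were 1 to 3 and 1 to 3 with 1 array left out at a time: in LG 1 without HG replicate 3, 2 without HG replicate 1, HG replicate 2, LG replicate 1 or LG replicate 2, and in HG 1 without LG replicate 3. Fgf9, a ligand made by many epithelia, was higher in HG (-2.82 ± 0.48, adjusted p = 0.000365) and is marked as possible carry-over from HG epithelium.

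Bone morphogenetic proteins, which restrain or promote bud growth according to the ligand, split by gland. Of 46 ligands, receptors and inhibitors of the BMP and TGF-beta families 6 were higher in LG and 9 in HG, beside 6.46 and 7.85 percent of all genes. Their median was -0.08, and the counts were 11 in LG and 11 in HG with the replicate block. Bmp4 was at 2.36, 2.35 and 2.67 in HG and -0.67, -0.27 and -0.30 in LG (-2.88 ± 0.33, adjusted p = 6.07e-06). Bmp3, which binds BMP receptors without activating the usual targets, was at 3.51, 3.43 and 3.52 and 0.52, 0.46 and 0.50 (-2.99 ± 0.34, adjusted p = 5.27e-06). Gdf6 and Bmp5 were not well above background in LG and were at least 16.3-fold and at least 5.83-fold higher in HG (adjusted p = 1.62e-09 and 2.62e-06). These 4 ligands were higher in every HG array than in any LG array.

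Bmp2 ran the other way, at 1.11, 1.36 and 1.24 in LG and -1.19, -1.36 and -1.42 in HG (2.56 ± 0.38, adjusted p = 9.87e-05). Inhbb, which encodes the beta subunit of activin B, was at 1.51, 1.35 and 1.497 in LG and -1.85, -1.97 and -2.57 in HG (3.58 ± 0.23, adjusted p = 4.86e-09). Bmp7, which supports mesenchymal condensation around the lacrimal bud, was at 2.56, 2.61 and 2.71 and 1.09, 1.15 and 0.59 (1.68 ± 0.18, adjusted p = 2.62e-06). Bmp7 is marked as possible carry-over, since its mean in LG epithelium was 5.13; that in HG epithelium was 5.27. Among 8 genes that respond to BMP signalling, none was called in either direction by limma (none had an unadjusted p below 0.05), and 3 were called higher in HG with the replicate block; their median was -0.37.

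Wnt pathway genes were called in both directions. Of 51 ligands, receptors and modulators 8 were higher in LG and 6 in HG, beside 6.46 and 7.85 percent of all genes. The median was -0.01. With the replicate block the counts were 13 in LG and 12 in HG. Dkk2, a secreted modulator that binds Wnt co-receptors, was at 3.58, 3.90 and 3.76 in LG and -0.0034, 0.30 and 0.47 in HG (3.49 ± 0.44, adjusted p = 1.75e-05). Dkk1, a related inhibitor, was not well above background in LG and at least 3.68-fold higher in HG (adjusted p = 0.00193). The related genes thus differed in opposite directions. The ligand Wnt4 was at 1.90, 2.20 and 2.17 and -0.35, 0.09 and -1.02 (2.52 ± 0.29, adjusted p = 6.22e-06), with HG replicate 3 the lowest array.

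R-spondins, which raise Wnt signalling through Lgr receptors, also divided. Rspo1 was at 3.26, 3.37 and 3.26 in LG and 0.97, 0.83 and 1.06 in HG (2.34 ± 0.42, adjusted p = 0.000602). Rspo2 was at 1.42, 1.97 and 1.80 in LG and 3.31, 3.61 and 3.72 in HG, and its difference of -1.82 ± 0.85 was not called (adjusted p = 0.185) although the arrays did not overlap. It was called when the fit held only the 6 gland mesenchyme arrays (adjusted p = 0.000984) and after normexp (0.000177). The receptor Lgr5, itself a Wnt target, was higher in LG (2.68 ± 0.29, adjusted p = 3.57e-06), and so was the target Apcdd1 (1.42 ± 0.24, adjusted p = 0.000376). Sp5, Lef1 and Dkk4, other Wnt targets, were higher in HG by at least 27-fold, at least 6.09-fold and at least 2.03-fold (adjusted p = 1.62e-09, 4.15e-06 and 0.000721), and all 3 are marked as possible carry-over from HG epithelium. Of 15 Wnt response genes 3 were higher in LG and 4 in HG.

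Retinoic acid, which is made from vitamin A, patterns periocular mesenchyme. Of 20 genes of the pathway 3 were higher in LG and 1 in HG, beside 6.46 and 7.85 percent of all genes. With the replicate block it was 5 in LG and 5 in HG. Stra6, the receptor that takes up retinol, was at 3.33, 3.18 and 3.45 in LG and 0.53, 0.36 and 0.11 in HG (2.99 ± 0.34, adjusted p = 5.81e-06). Crabp1, which binds retinoic acid in the cell, was at 3.64, 3.40 and 3.33 and 0.40, 0.31 and 0.37 (3.10 ± 0.62, adjusted p = 0.00176). Both genes were higher in every LG array. The retinoic acid responder Rarres1 differed by 2.49 ± 0.29 (adjusted p = 7.79e-06). The synthetic enzyme Aldh1a2 was at 5.75, 5.74 and 5.93 in LG and 4.596, 4.67 and 4.88 in HG, without overlap, and was not called (1.09 ± 0.55, adjusted p = 0.233); it was called with the replicate block (adjusted p = 0.0174), with the 18 embryonic arrays (0.0271) and with the 6 gland mesenchyme arrays (0.00119). Aldh1a3, the enzyme higher in HG (-1.47 ± 0.34, adjusted p = 0.00607), is marked as possible carry-over.

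In the Notch pathway, through which neighbouring cells signal by contact, 4 of 19 genes were higher in HG, beside 7.85 percent of all genes. Limma called none higher in LG, where 3 had an unadjusted p below 0.05; with the replicate block the counts were 2 in LG and 7 in HG. The ligand Jag1 differed by -1.11 ± 0.21 and the target Hey1 by -1.88 ± 0.26 (adjusted p = 0.0012 and 5.18e-05). Chemokines, which steer migrating cells, were called in both directions (4 of 29 higher in LG, 5 higher in HG, beside 6.46 and 7.85 percent of all genes). Cxcl12 was at 4.77, 4.68 and 4.84 in LG and 6.01, 5.75 and 6.02 in HG, without overlap and not called (-1.17 ± 0.51, adjusted p = 0.158), but it was called when the fit held only the 6 gland mesenchyme arrays (adjusted p = 0.000846). Cxcl14 and Cxcl5 were higher in HG (-1.76 ± 0.33 and -2.98 ± 0.42, adjusted p = 0.000989 and 5.71e-05; Cxcl5 -1.49 after normexp, with 1 of the 3 LG arrays well above background), and the decoy receptor Ackr4 in LG (2.41 ± 0.28, adjusted p = 6.53e-06). With 1 array left out the chemokine counts were 2 to 3 in LG (2 without HG replicate 1, HG replicate 3, LG replicate 1 or LG replicate 2) and 3 to 4 in HG (3 without HG replicate 1, HG replicate 3, LG replicate 1 or LG replicate 2).

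**Figure D3:**
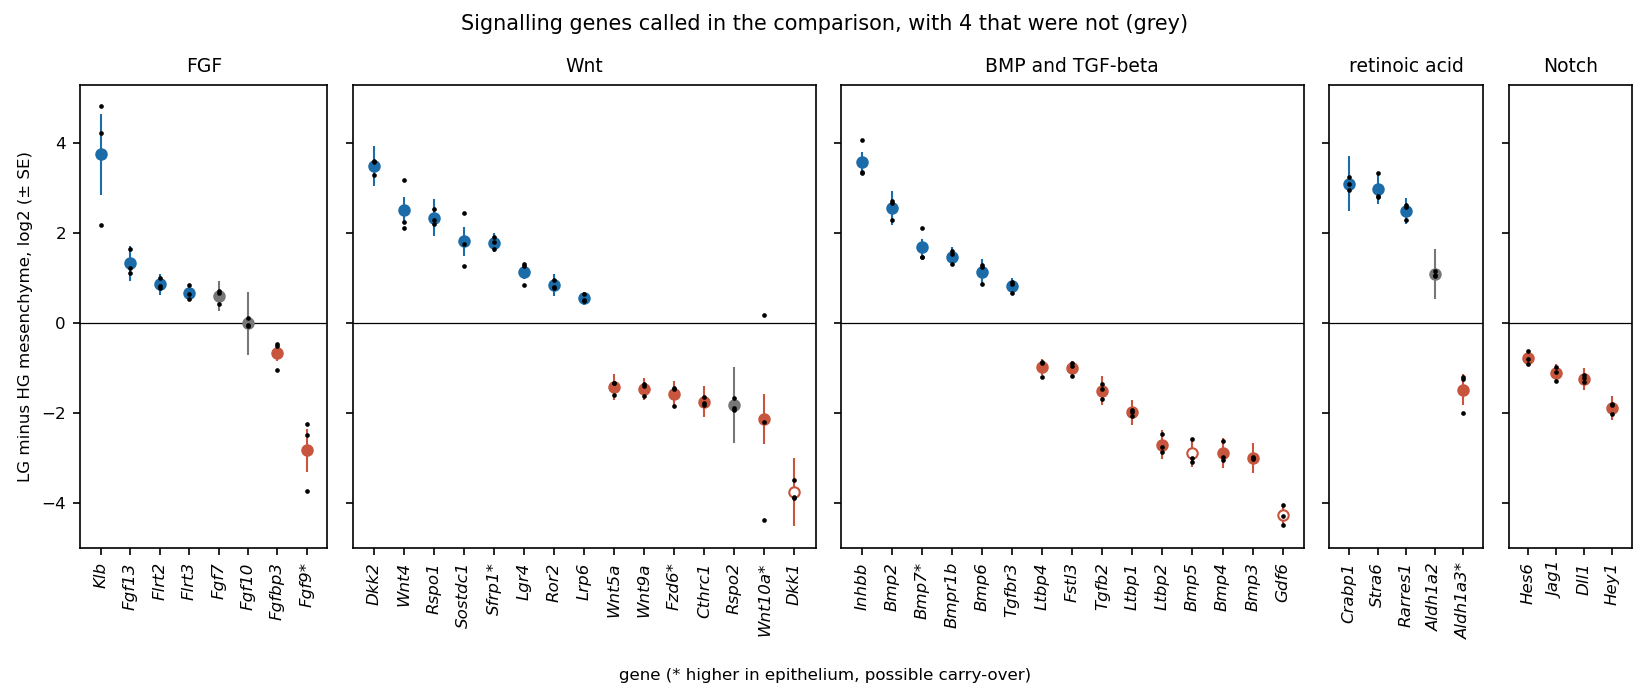
LG minus HG difference (y axis, log2; large points with SE bars from the fit, small black points the difference within each of the 3 slides) for the called members of 5 signalling lists and for Fgf10, Fgf7, Rspo2 and Aldh1a2, which were not called (grey). Open points were not well above background in the dimmer gland; Bmp2, Dkk2 and Stra6 lie above 0 and Bmp4, Gdf6 and Dkk1 below it on every slide.

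Collagens, the fibres and sheets of the matrix, were mostly higher in LG. Of the 25 in the list 15 were higher in LG and 2 in HG. Their median was 1.07 (0.85 with genes not above background at their bound) against -0.03 over all genes. Of all 40 collagen genes measured 16 and 2 were called, with a median of 0.74. The count on the LG side was 14 or 15 with any 1 array left out. Col6a5 was at -1.20, -1.21 and -1.09 in LG and not well above background in HG, at least 11.7-fold lower (adjusted p = 9e-10). Col6a4, of the same collagen type, was at least 2.44-fold higher in LG (adjusted p = 5.27e-07), but a second probe for it gave a difference of -0.49. Col24a1 differed by 1.77 ± 0.26 (adjusted p = 7.42e-05).

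The summed level of the list was 470.2 to 510.3 in LG mesenchyme, 294.5 to 337.2 in HG and 282.0 to 324.7 in the eyelid. The list does not hold all bright collagens. Summed over all 40 collagen genes, the level was 1848 to 2235 in LG, 1441 to 1785 in HG and 1593 to 2116 in the eyelid. On that sum the eyelid overlapped both glands. The most widespread fibrillar collagens were not called: Col1a1 differed by 0.14 ± 0.35, Col1a2 by 0.28 ± 0.29 and Col3a1 by 0.37 ± 0.42 (adjusted p = 0.871, 0.634 and 0.666). Col8a1, a short-chain collagen, was higher in HG (-2.51 ± 0.43, adjusted p = 0.000408; -0.81 after normexp, with 1 of the 3 LG arrays well above background), as was Col4a5, which is marked as possible carry-over (-1.14 ± 0.22, adjusted p = 0.00108). The basement membrane genes Col4a1 and Col4a2 were both higher in LG, by 0.79 and 0.79 (adjusted p = 0.00133 and 0.00401), calls not made with arrays scaled by their median. Col1a1, Col1a2, Col3a1, Col4a1 and Col4a2 were chosen after their values were seen.

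**Figure D4:**
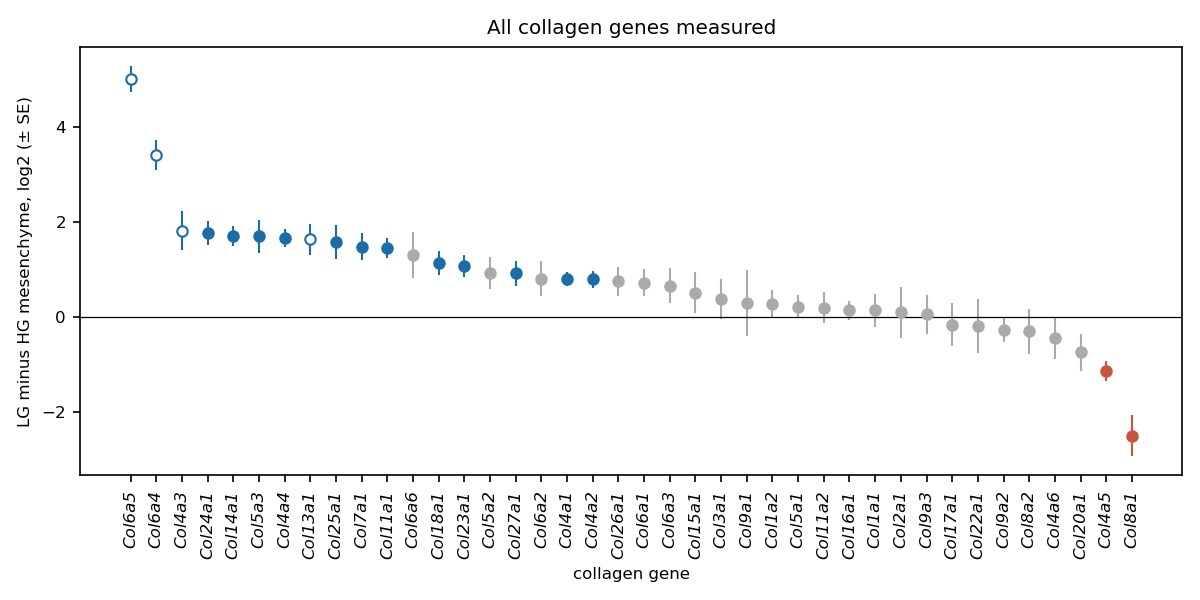
LG minus HG difference (y axis, log2, points with SE bars from the fit) for the 40 collagen genes measured (x axis); blue points were called higher in LG, red higher in HG, grey not called, and open points were not well above background in the dimmer gland. 16 genes are blue and 2 are red, and Col1a1, Col1a2 and Col3a1 are grey and near 0.

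Of the 74 other matrix genes in the list 12 were higher in LG and 15 in HG, with a median of -0.08, and 19 in LG and 21 in HG with the replicate block. Fbln5, a fibulin needed to assemble elastic fibres, was at 5.09, 4.87 and 5.10 in HG and 2.84, 2.68 and 2.57 in LG (-2.33 ± 0.26, adjusted p = 3.85e-06), and the microfibril gene Mfap5 was at 6.75, 6.49 and 6.73 and 4.24, 3.82 and 4.08 (-2.61 ± 0.44, adjusted p = 0.000343). Both were higher in every HG array. Further genes of elastic fibres and microfibrils, chosen with Eln after their values were seen and so no evidence of a direction for such genes, were Fbln2 (-2.37 ± 0.21, adjusted p = 2.31e-07), Mfap2 (-1.47 ± 0.16, adjusted p = 2.76e-06) and Ltbp2, which binds fibrillin (-2.69 ± 0.33, adjusted p = 1.04e-05). Eln, elastin itself, differed by -1.84 ± 0.49 (adjusted p = 0.0153), a call lost without LG replicate 1, HG replicate 2 or HG replicate 3 (adjusted p = 0.0617, 0.0546 and 0.0574). Ccn2, connective tissue growth factor, was at 2.57, 2.92 and 2.77 in HG and 0.0036, 0.10 and 0.36 in LG (-2.60 ± 0.35, adjusted p = 3.76e-05). With 1 array left out the counts were 7 to 10 in LG (7 without HG replicate 3 or LG replicate 3) and 10 to 13 in HG (each within 1.5 times the count).

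Proteases that cut the matrix were led on the LG side by 4 members of the ADAMTS family. Beside Adamts16 these were Adamts14, which trims procollagen (3.33 ± 0.24, adjusted p = 2.45e-08), Adamts5, an aggrecanase (2.87 ± 0.40, adjusted p = 5.34e-05), and Adamts17 (2.79 ± 0.22, adjusted p = 6.95e-08). Adamts14 was at 4.51, 4.50 and 4.59 in LG and 1.28, 1.28 and 1.04 in HG, and Adamts17 at 5.05, 5.04 and 5.11 and 2.30, 2.28 and 2.25. The glands did not overlap for either, and a second probe gave a smaller difference of 1.56 for Adamts14 and 2.29 for Adamts17. Adamts6 was not well above background in LG and at least 4.77-fold higher in HG (adjusted p = 2.41e-10), and Adamtsl2, a related protein without protease activity, was higher in HG by a difference of -2.97 ± 0.56 (adjusted p = 0.00106; -1.29 after normexp, with 1 of the 3 LG arrays well above background). In all, 10 of 35 proteases and inhibitors were higher in LG and 8 in HG. With 1 array left out the counts were 6 to 8 in LG (6 without LG replicate 2) and 5 to 6 in HG (5 without HG replicate 3).

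Tendon-related genes differed by gene rather than together. Kera, the corneal and tendon proteoglycan keratocan, was at 6.32, 5.98 and 6.11 in LG and 2.34, 1.90 and 1.85 in HG (4.10 ± 0.55, adjusted p = 3.1e-05), and Mkx, a homeobox regulator of tendon cells, at -1.04, -0.86 and -1.19 and -3.99, -4.43 and -4.25 (3.19 ± 0.28, adjusted p = 2.85e-07; 1.72 after normexp, with 2 of the 3 HG arrays well above background). Scx, a main regulator of tendon cells, was higher in HG (-2.04 ± 0.35, adjusted p = 0.000482) and is marked as possible carry-over. Of 8 bone genes 1 was called, Alpl, alkaline phosphatase, which was higher in HG (-2.61 ± 0.35, adjusted p = 3.79e-05), while the list's median was 0.24 (0 with genes not above background at their bound).

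Of 16 fat cell genes 3 were higher in LG and 2 in HG, with a median of -0.29 (0 with genes not above background at their bound), and 3 in LG and 4 in HG with the replicate block. Lpl, a lipase, and Pparg, the main regulator of fat cells, were higher in LG (3.04 ± 0.20 and 1.70 ± 0.22, adjusted p = 7.11e-09 and 2.1e-05), as was Pck1, an enzyme of glucose synthesis (at least 1.56-fold, adjusted p = 0.000119). Car3, a carbonic anhydrase abundant in fat, was at -3.05, -2.97 and -1.69 in HG and not well above background in LG, at least 6.31-fold lower there (adjusted p = 0.00498). Cebpa, another regulator of fat cells, was higher in HG (-0.53 ± 0.16, adjusted p = 0.0343) and is marked as possible carry-over. Pck1, Car3 and Cebpa were not called after normexp, and Cebpa was called with 1 array left out only when that was LG replicate 1.

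Growth-related genes formed another difference. Of 24 genes of the IGF family and imprinted growth genes 8 were higher in LG and 3 in HG, with a median of 0.48. Igfbp6, an IGF-binding protein, was at 4.45, 4.38 and 4.37 in LG and 1.55, 1.20 and 1.46 in HG (2.99 ± 0.38, adjusted p = 1.86e-05), and Igfbp5, another, was at 2.30, 2.12 and 1.85 and 4.66, 4.54 and 4.62 (-2.52 ± 0.38, adjusted p = 0.000115). The binding proteins thus differed in opposite directions. The imprinted genes Mest (2.08 ± 0.26, adjusted p = 1.61e-05) and Zim1 (2.91 ± 0.26, adjusted p = 3.89e-07) were higher in LG and Nnat in HG (-2.87 ± 0.33, adjusted p = 6.31e-06). Mest was among the brighter genes, at 7.08, 7.08 and 7.21 in LG and 5.05, 5.08 and 4.997 in HG.

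Cell cycle genes were higher in LG at 11 of 29 members, with a median of 0.57. Limma called none in the HG direction, and 0 of the 29 had an unadjusted p below 0.05 there. Ccne1, cyclin E1, differed by 1.28 ± 0.18 and Rrm2, a subunit of ribonucleotide reductase, by 1.08 ± 0.15 (adjusted p = 5.44e-05 and 3.88e-05). The count varied with the settings: it was 27 with the replicate block and 3 with arrays scaled by their median, and 7 without LG replicate 3. The summed level was 488.7 to 558.2 in LG and 317.3 to 348.7 in HG, without overlap.

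Genes of nerve and of the response to nerve signals differed strongly at single members. Of 33 receptors for transmitters 5 were higher in LG and 4 in HG, beside 6.46 and 7.85 percent of all genes. Gabra2, a subunit of the GABA-A receptor, was at -0.10, -0.35 and -0.42 in LG and -5.26, -3.85 and -4.62 in HG (4.29 ± 0.41, adjusted p = 6.3e-07; 2.39 after normexp, with 1 of the 3 HG arrays well above background). The adrenergic receptor Adra2a was higher in LG (3.02 ± 0.55, adjusted p = 0.000794), and the serotonin receptor Htr2b was not well above background in HG and at least 4.75-fold higher in LG (adjusted p = 9.9e-05). On the HG side stood, beside Htr7, the muscarinic receptor Chrm3 (at least 2.06-fold, adjusted p = 0.000223) and the glutamate receptor subunit Grik1 (-2.41 ± 0.30, adjusted p = 1.5e-05).

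Guidance cues, which attract or repel axons and migrating cells, were called at 17 of 66 members. Of these 8 were higher in LG and 9 in HG, beside 6.46 and 7.85 percent of all genes. With the replicate block it was 12 in LG and 19 in HG. Slit2, a repellent ligand, was at 1.11, 0.91 and 1.27 in HG and -2.56, -2.51 and -2.36 in LG (-3.58 ± 0.38, adjusted p = 2.79e-06). Robo2, a receptor for Slit proteins, was at 3.62, 3.63 and 3.71 in LG and 1.14, 1.12 and 1.06 in HG (2.55 ± 0.25, adjusted p = 9.65e-07), and its second probe gave 2.51. Ligand and receptor were therefore higher in different glands. The netrin receptor Unc5c and the ephrin receptor Epha4 were higher in HG (-2.80 ± 0.33 and -2.60 ± 0.36, adjusted p = 7.14e-06 and 5.12e-05). Artn, a neurotrophic ligand for sympathetic axons, was higher in LG (2.14 ± 0.19, adjusted p = 2.62e-07).

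Neuronal markers were called mostly in LG, 5 of 20 there and 1 in HG (5 in LG and 2 in HG with the replicate block). The neurofilament genes Nefl and Nefm were at 4.28, 4.52 and 4.38 and 1.53, 2.07 and 1.94 in LG and at 0.78, 0.53 and 0.85 and -1.10, -1.18 and -0.93 in HG (3.68 ± 0.44 and 2.92 ± 0.31, adjusted p = 8.93e-06 and 2.66e-06). Phox2a, a factor of autonomic neurons, differed by 2.61 ± 0.34 (adjusted p = 2.35e-05; 1.69 after normexp). The summed level of the list was 57.7 to 65.9 in LG and 25.1 to 38.3 in HG. Its median difference was 0.25 (0.18 with genes not above background at their bound). Markers of Schwann cells, which accompany nerves, had a summed level of 56.7 to 62.2 in LG and 39.0 to 41.3 in HG, while their 4 called members of 14 were all higher in HG, among them Foxd3 (-1.51 ± 0.24, adjusted p = 0.000248; -0.67 after normexp, with 2 of the 3 LG arrays well above background). With the replicate block their counts were 1 in LG and 4 in HG. The part of nerve cells in the differences of receptors and guidance genes was not tested.

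Pigment genes were nearly all higher in HG. Of 15 markers 11 were higher in HG, with a median of -3.55 against -0.03 over all genes, and 1 (Kit) was higher in LG; with any 1 array left out 10 were higher in HG. The summed level was 16.02 to 18.99 in LG, 102.2 to 130.4 in HG and 96.0 to 122.6 in the eyelid. Dct, dopachrome tautomerase, was at 6.17, 5.57 and 5.99 in HG and 1.08, 0.63 and 1.02 in LG (-5.000 ± 0.42, adjusted p = 1.45e-07). Tyrp1, tyrosinase-related protein 1, was at 3.59, 2.95 and 3.20 and -2.69, -3.17 and -2.60 (-6.07 ± 0.39, adjusted p = 7.11e-09). Tyr, the rate-limiting enzyme of melanin synthesis, which was chosen after its values were seen, was at -0.66, -0.60 and -0.77 and -2.57, -2.85 and -3.43 (-2.27 ± 0.37, adjusted p = 0.000244). HG and LG arrays did not overlap for any of the 3 enzymes.

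The melanosome protein Mlana differed by -4.77 ± 0.39 (adjusted p = 1.2e-07), and Oca2, a melanosomal transporter, was not well above background in LG and at least 16.02-fold higher in HG (adjusted p = 3.42e-07). Kit, the receptor that pigment cells share with mast cells, was higher in LG (1.46 ± 0.22, adjusted p = 0.000136). In a list of melanocortin signalling genes assembled after the values were seen, 2 of 9 measured were higher in each gland. Mc1r, the receptor of pigment cells, was at least 4.29-fold higher in HG, and Mc4r, a relative known from the brain, at least 6.29-fold (adjusted p = 8.05e-05 and 1.9e-08). The agouti gene (symbol a), whose product blocks Mc1r, was at 0.87, 0.59 and 0.96 in LG and -2.58, -2.90 and -2.41 in HG (3.44 ± 0.64, adjusted p = 0.000855).

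The promoters of the 3 enzymes that differed together are shown because they carry a sequence by which pigment genes are commonly recognised. They span the start of the gene in RefSeq (GRCm38.p6) and are written 5′ to 3′ on the gene's strand: Tyrp1 at chr4:80833963-80834262 (plus strand), Tyr at chr7:87493463-87493762 (minus strand) and Dct at chr14:118052197-118052496 (minus strand). Capitals mark TCATGTG, or its reverse complement CACATGA, the core of the M-box to which the pigment cell factor Mitf binds.
Tyrp1: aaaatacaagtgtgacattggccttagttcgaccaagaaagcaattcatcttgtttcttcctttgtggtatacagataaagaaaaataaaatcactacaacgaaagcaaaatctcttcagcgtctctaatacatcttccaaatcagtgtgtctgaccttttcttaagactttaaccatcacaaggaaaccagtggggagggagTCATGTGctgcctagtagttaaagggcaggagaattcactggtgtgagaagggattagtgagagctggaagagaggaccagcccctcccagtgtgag
Tyr: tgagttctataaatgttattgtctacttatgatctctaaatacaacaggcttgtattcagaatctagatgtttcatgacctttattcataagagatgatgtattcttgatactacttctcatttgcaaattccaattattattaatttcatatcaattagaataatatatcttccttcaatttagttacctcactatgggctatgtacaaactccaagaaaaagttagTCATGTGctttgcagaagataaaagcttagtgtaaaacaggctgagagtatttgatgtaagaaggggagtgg
Dct: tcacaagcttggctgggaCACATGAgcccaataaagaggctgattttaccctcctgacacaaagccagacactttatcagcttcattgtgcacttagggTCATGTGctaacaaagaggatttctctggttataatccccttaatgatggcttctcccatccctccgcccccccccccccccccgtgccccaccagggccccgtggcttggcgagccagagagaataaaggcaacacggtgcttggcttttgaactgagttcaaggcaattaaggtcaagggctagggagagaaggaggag

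On both strands the 7 letters occur once in Tyrp1, once in Tyr and at 2 places in Dct. They were found in 5 of the 10 pigment genes of the list with a promoter sequence (Dct, Slc24a5, Trpm1, Tyr and Tyrp1). Over all genes with a promoter sequence it was 1165 of 27025 (4.31 percent). Counted by promoter of this length it was 1239 of 32851 (3.77 percent). A match describes the sequence and is not evidence of binding.

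Blood cell markers were called in both directions. In lists assembled after the values were seen, 15 of 18 genes of neutrophil granules were higher in HG (median -3.07). So were 11 of 14 genes of B-lineage precursors (median -2.84), of which Blnk is marked as possible carry-over. Cd72 of that list ran towards LG without overlap and was not called (1.24 ± 0.55, adjusted p = 0.16). With 1 array left out the counts were 13 to 14 and 9 to 10. Since the values were known when these lists were made, their counts and medians are no evidence of a direction for a cell type. The granule gene Camp was at 3.34, 2.50 and 3.45 in HG and -0.60, -0.02 and -0.52 in LG (-3.47 ± 0.58, adjusted p = 0.000315), and S100a9 at 6.82, 6.28 and 6.63 and 3.27, 3.68 and 3.04 (-3.24 ± 0.44, adjusted p = 4.13e-05). Vpreb3, a component of the precursor B cell receptor, was at 1.64, 1.63 and 1.80 in HG and -3.01, -3.01 and -5.57 in LG (-5.55 ± 0.64, adjusted p = 6.34e-06; 2 of the 3 LG arrays were well above background), and Igll1, another, was at least 23-fold higher in HG (adjusted p = 1.2e-07). Groups did not overlap for these 4 genes. Summed levels were 19.2 to 27.2 in LG and 148.8 to 212.1 in HG for neutrophil granules, and 2.0 to 2.3 in LG against a mean of 12.51 in HG for B-lineage precursors.

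Of the mast cell genes, also a list assembled after the values were seen and under the same limit, 6 of 13 were higher in LG (median 1.70). Their summed level was 147.6 to 199.0 in LG, 43.9 to 50.7 in HG and 335.3 to 411.9 in the eyelid. Il1rl1, the receptor for interleukin 33, was at 3.16, 2.69 and 2.96 in LG and 0.64, 0.47 and 0.43 in HG (2.43 ± 0.43, adjusted p = 0.000593), and the tryptase gene Tpsg1 at 2.77, 2.81 and 2.71 and -0.76, -0.47 and -0.42 (3.31 ± 0.76, adjusted p = 0.00541). The mast cell protease Cpa3 was at 6.26, 5.92 and 5.89 and 3.70, 3.96 and 3.82, without overlap, and was not called (2.20 ± 0.88, adjusted p = 0.114), but it was called after normexp (adjusted p = 0.0037), with the replicate block (0.0199), with the 18 embryonic arrays (0.0189) and with the 6 gland mesenchyme arrays (0.000177). The 22 general immune markers include the mast cell genes Cpa3, Mcpt4 and Cma1. Of the 22 only Cma1 was called, higher in LG (2 in LG and 4 in HG with the replicate block). Their summed level was 259.0 to 292.2 in LG and 212.9 to 242.4 in HG, but their median difference was -0.27. The arrays did not overlap for 2 of them towards LG and 10 towards HG, beside 7113 of all 16324 genes. The immune sum therefore does not stand for its members. The part of these cells in other differences was not tested.

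Muscle markers were few and split by kind. Smooth muscle and pericyte genes were called higher in HG at 5 of 15 and in LG at 1 (3 in LG and 7 in HG with the replicate block), with summed levels of 79.4 to 87.5 in LG and 113.0 to 120.5 in HG. Cnn1, calponin 1, was at 1.56, 1.52 and 0.98 in HG and -2.19, -1.74 and -2.46 in LG (-3.49 ± 0.32, adjusted p = 4.19e-07), and Myh11, smooth muscle myosin, at -1.48, -1.56 and -1.76 and -4.22, -4.17 and -4.46 (-2.69 ± 0.48, adjusted p = 0.000601; -1.43 after normexp). Of 34 skeletal muscle genes 8 were higher in HG, and 17 with the replicate block, with a median of -1.46 (-0.68 with genes not above background at their bound). Myog, a factor of differentiating muscle, was not well above background in LG and at least 11.4-fold higher in HG (adjusted p = 0.000374). The summed skeletal muscle level was 21.0 to 23.7 in LG and 23.4 to 24.0 in 2 HG arrays but 41.7 in HG replicate 3, against 347.7 to 524.4 in the eyelid, and the list's count varied with the array left out (3 without HG replicate 3, 5 without HG replicate 2 or LG replicate 3). In a list of adult-type muscle genes assembled after the values were seen, the 3 measured were called higher in LG: Myh2, a fast myosin (3.21 ± 0.84, adjusted p = 0.0136; 1.72 after normexp), Myh4, another (at least 6.79-fold, adjusted p = 0.0171), and Myot, myotilin (at least 4.58-fold, adjusted p = 0.0198). With 1 array left out their count was 0 to 3 (0 without LG replicate 3, 1 without HG replicate 1, HG replicate 2 or LG replicate 2), and Myh4 and Myot were not called after normexp.

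**Figure D5:**
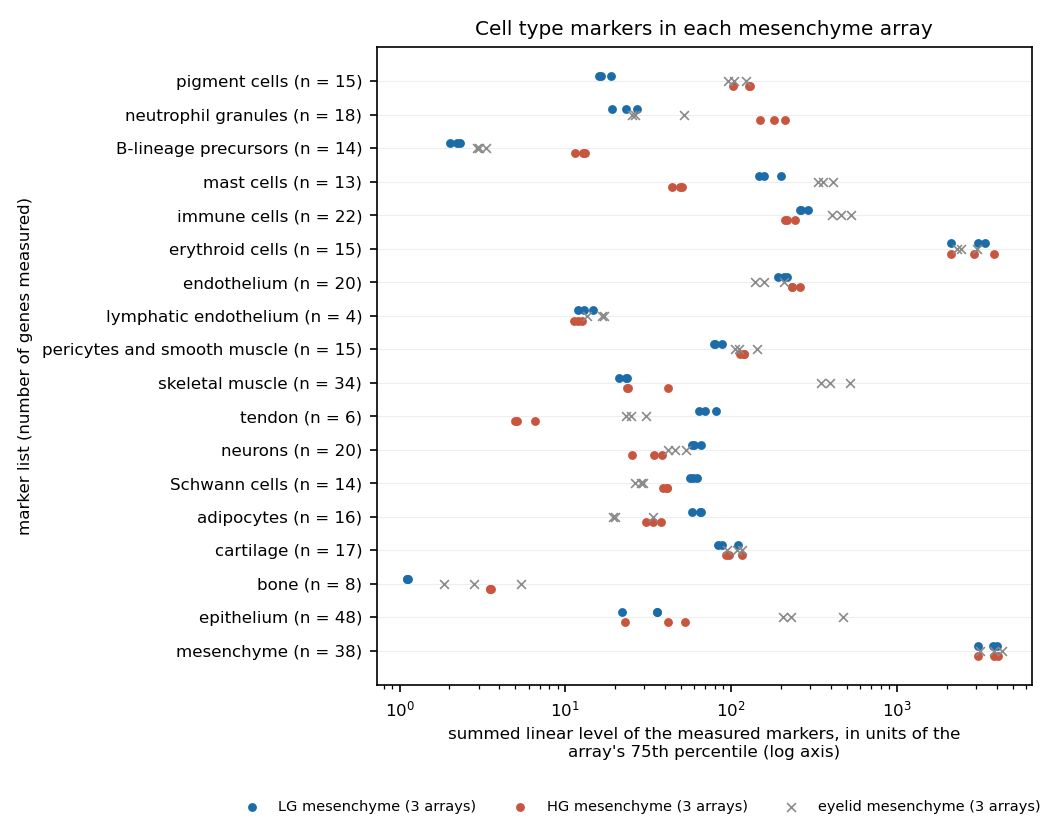
Summed linear level of each cell type list (x axis, log scale, in units of the array's 75th percentile) in each of the 3 LG, 3 HG and 3 eyelid mesenchyme arrays (y axis: list with the number of genes measured). Summed levels of the pigment cell, neutrophil granule and B-lineage lists are higher in all HG arrays, and those of mast cell, tendon and neuron lists in all LG arrays. The neutrophil granule, B-lineage and mast cell lists were assembled after the values were seen. Mesenchyme and erythroid lists overlap. The tendon sum does not stand for its members: their median difference was -0.95, and of 6 measured 2 were called in each direction. For the neuron list the median difference was 0.25, and of 20 measured 5 were called in LG and 1 in HG. The immune sum is also higher in all LG arrays, while that list's median difference was -0.27.

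Of 20 endothelial genes 1 was called, although the summed levels did not overlap, at 192.1 to 216.8 in LG and 232.5 to 259.5 in HG. Erythroid genes, which mark blood in the tissue, had a summed level of 2109 to 3411 in LG and 2115 to 3852 in HG, with 1 of 15 called. Of 48 epithelial genes limma called none higher in LG (0 had an unadjusted p below 0.05 there) and 3 were higher in HG (1 without HG replicate 1, HG replicate 2 or LG replicate 2, 6 without HG replicate 3), and the list's median within slides 1 to 3 was -0.17, -1.35 and 0.90, so its direction differed between slides. Krt15, a keratin of basal epithelium, was at 2.05, 2.84 and 0.58 in HG and -3.05, -3.68 and -2.40 in LG (-4.87 ± 0.75, adjusted p = 0.000155) and at a mean of 5.65 in HG epithelium. Msln, mesothelin, was at least 5.66-fold higher in HG (adjusted p = 0.000376) and is marked as well. On the LG side the water channel Aqp5, a marker of secretory epithelium, was at -2.30, -2.09 and -1.96 in LG and -4.26, -4.40 and -5.58 in HG (2.63 ± 0.30, adjusted p = 6.05e-06; 0.97 after normexp, with 2 of the 3 HG arrays well above background), and at a mean of 0.32 in LG epithelium; a second probe gave a difference of 1.15. The part of carry-over in these 3 genes was not tested.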

How the data were processed

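Total RNA of 23 samples was labelled with Cy3 and hybridised to 1-colour Agilent arrays, per the labels' protocols. The deposited files hold the scanner's processed signal intensity per spot, and the submitters' processing notes name Agilent Feature Extraction 11.5.1.1; the headers of the 7 slide 1 files name the older 11.0.1.1. The authors' series table of intensity values equals the mean processed signal per probe (median log2 ratio 0 on all 23 arrays).

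Here log2 of the processed signal minus each array's 75th percentile was computed, controls and outlier flags were left out, spots of a probe were averaged, and the kept probe with the highest mean stood for a gene. Of 55681 probes 27509 matched 20887 symbols and 28172 were not matched. A probe was kept where all arrays of 1 or more groups had it well above background, which left 16324 genes. Limma 3.58.1 (R 4.3.3) fitted all 23 arrays in 8 groups, with two-sided tests and Benjamini-Hochberg adjustment over all genes at 0.05. No spot was saturated. The number of arrays limits the precision.

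A gene was marked as possible carry-over when it was at least 2-fold higher, and called, in the epithelium of the gland whose mesenchyme had more of it. Named genes were called at least 2-fold without overlap (the 12 largest in each direction, and the 4 largest among marked genes), or the called list members, up to 4 in each direction, or genes of a short list named whatever their values; others are said to be chosen after their values were seen. Members and lists were chosen with earlier results of these data known. Lists were given no set test. A few genes that the rule names are not reported here.

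Replicate numbers in the labels equal the slides. Deviations from the group means of same-numbered LG and HG arrays correlated at 0.345, 0.418 and 0.386, so the numbers pair the arrays; a shared slide and a shared litter or day cannot be told apart. Alternatives changed the scaling (median, quantile), the background correction (normexp, offset 50, on median signals), the source table, the filter, the block, the arrays in the fit, the variance prior, the probe rule and the replicates. The fit was also run on simulated data. The simulated noise was independent between arrays, so that run does not cover the pairing of arrays by slide. Python libraries were pandas 2.3.3 and matplotlib 3.10.9.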

Additional observations from a re-analysis of the deposited data

How the results depend on the processing

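Of 205 named genes 195 were called, 145 of them under every alternative, while 50 lost the call or reversed in at least 1. The main counts were 1055 genes higher in LG and 1281 higher in HG. They were 538 and 692 with arrays scaled by the median, 2433 and 2934 with the replicate block, 1758 and 2000 with the 18 embryonic arrays, 2021 and 2292 with the 6 gland mesenchyme arrays, and 587 and 732 without replicate 1 of both groups. With 1 array left out they ranged from 729 to 810 and from 879 to 1034. The count at least 2-fold higher in LG was 384 with normexp. Cell cycle calls in LG were 3 with median scaling, 20 with normexp, 27 with the replicate block, 17 with the slide as a random block, 25 and 24 with the 18 and 6 arrays, and 4 without replicate 1 of both groups, and they ranged from 7 to 9 with 1 array left out. Under a 4-fold rule 34 and 62 genes were marked as possible carry-over. The direction reversed for Spock1 without the filter on dim probes (0.58). Among uncalled genes near 0, Fgf10 reversed with quantile normalization (0.013) and normexp (0.0063) and with 1 array left out, where it ranged from -0.091 to 0.073. Gata6 then ranged from -0.14 to 0.060 and Pdgfra from -0.12 to 0.0014. Except where a value or the smaller number of arrays shows it, the cause was not tested.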

Other observations

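A list of prostaglandin enzymes and receptors, assembled after the values were seen, had 5 of 15 members higher in HG and 1 in LG, with a median of -0.24; with any 1 array left out 3 were higher in HG, and with the replicate block the counts were 2 in LG and 6 in HG. Ptgds, which makes prostaglandin D and carries lipids, was at 4.67, 4.59 and 4.86 in HG and -0.46, -0.39 and -0.23 in LG (-5.07 ± 0.31, adjusted p = 3.1e-09). The receptor genes Ptger4 and Ptger2 were higher in HG (-4.39 ± 0.61 and -3.07 ± 0.27, adjusted p = 4.55e-05 and 3.08e-07; -2.38 and -1.76 after normexp, with 1 of the 3 LG arrays well above background for Ptger4), and Ptger3 was higher in LG (2.15 ± 0.32, adjusted p = 9.83e-05). These 3 receptors bind the same ligand, prostaglandin E. All HG arrays were above all LG arrays for Ptgds, Ptger4 and Ptger2, and below them for Ptger3.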
